A study of Mus musculus with 12 samples.

Results

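The genes described here are the cytochromes P450 of families 1 to 3 in mouse liver, apart from the 4 that are best known for activating acetaminophen (APAP). Members were all genes of the count table whose symbol starts with Cyp1, Cyp2 or Cyp3 followed by a subfamily letter and a number, and Cyp2e1, Cyp1a2, Cyp3a11, Cyp2a5 and 10 pseudogenes were left out. This gave 46 of 24187 genes, in 14 subfamilies. The larger ones were Cyp2c with 13 members, Cyp2d with 8, Cyp3a with 8, Cyp2j with 4, Cyp2a with 3 and Cyp2b with 2, and Cyp1a, Cyp1b, Cyp2f, Cyp2g, Cyp2r, Cyp2s, Cyp2t and Cyp2u had 1 member each.

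The study asked whether human alternatively activated macrophages (hAAM), grown outside the body and frozen before use, help mouse liver recover from APAP injury. RNA of whole liver was sequenced from 3 untreated control mice, 5 mice given 350 mg/kg APAP and then phosphate-buffered saline (vehicle), and 4 mice given 350 mg/kg APAP and then hAAM. The dose is that of the labels. The legend around the RNA sequencing panel describes a more severe model at 500 mg/kg, so which dose these livers received is not certain. The methods name C57BL6/JOlaHsd mice aged 10 to 12 weeks that fasted for 12 h before APAP and received cells or vehicle into the tail vein 16 h after it. No genotype, sex or time of tissue collection is given in the labels, and the sources differ on the time: the methods give 36 h after APAP as the early end point, and the same legend has mice killed 16 h after the cells or vehicle. When these livers were taken is therefore not certain. The controls are labelled untreated and uninjured, and the methods describe fasting also for mice given saline without APAP. Whether that covers these untreated mice is not stated, and if it does not, APAP and fasting cannot be told apart. The Y-linked Ddx3y was at 54.4 to 75.1 CPM (a gene's counts relative to the scaled size of the library) and Xist at 2.59 CPM or less in the 12 livers.

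P450 enzymes of these families sit in the endoplasmic reticulum of hepatocytes, take electrons from NADPH through the reductase Por, and oxidise drugs, steroids, bile acids and fatty acids. Many are made mainly by the hepatocytes around the central vein, which is also where APAP is turned into its toxic product and where cells die first. Cyp2f2, by contrast, is a textbook gene of hepatocytes near the portal tract.

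Libraries held 47391650 to 74056505 counts, of which the members took 0.353 to 0.647%. The hepatocyte markers were present in every liver, with a summed level of 88700 to 127000 CPM. The libraries vehicle 3 and hAAM 4 were nearly the same: their gene counts differed by 1.2 times the spread that counting alone gives, against 2.55 for the next closest pair. Over the 26 members at 10 CPM or more, the median difference of that pair was 0.0282 on the log2 scale, against 0.161 for the next pair. They carry labels of different groups, and whether they come from separate mice is not certain. Both were kept and counted in n, and results are given with and without them. The liver hAAM 3 stood apart from the other injured livers. It had the highest level of the 9 APAP livers in 29 of 45 members and lay within the control range in 18.

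Promoter sequences of 6 members are shown for the 2 genes that rose and their neighbour Cyp2f2, which fell, and for 3 Cyp2c genes: the 2 with the largest falls and Cyp2c70, the highest member per kilobase of exon in controls. Each line gives the 150 bases before the RefSeq start on the GRCm38.p6 build, 5′ to 3′ on the gene's strand. Capitals mark matches to CAAAGNNCA, a core of the site bound by the hepatocyte factor HNF4A, and to TATAAA, the TATA box, on either strand. Cyp2a12 and Cyp2a22 rose after APAP, and the other 4 fell in the vehicle group.
Cyp2a12 (chr7:27028940-27029089, plus strand): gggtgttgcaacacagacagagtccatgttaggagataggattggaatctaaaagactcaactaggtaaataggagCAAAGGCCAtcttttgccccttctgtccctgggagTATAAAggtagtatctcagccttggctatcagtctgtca
Cyp2a22 (chr7:26939387-26939536, minus strand): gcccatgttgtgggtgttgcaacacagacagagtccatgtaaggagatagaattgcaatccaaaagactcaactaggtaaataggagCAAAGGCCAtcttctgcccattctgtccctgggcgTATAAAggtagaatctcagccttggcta
Cyp2f2 (chr7:27119805-27119954, plus strand): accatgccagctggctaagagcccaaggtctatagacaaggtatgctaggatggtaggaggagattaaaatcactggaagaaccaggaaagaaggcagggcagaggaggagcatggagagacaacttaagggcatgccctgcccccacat
Cyp2c29 (chr19:39286935-39287084, plus strand): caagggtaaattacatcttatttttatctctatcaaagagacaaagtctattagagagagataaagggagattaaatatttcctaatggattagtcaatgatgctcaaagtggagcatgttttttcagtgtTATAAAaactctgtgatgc
Cyp2c38 (chr19:39463076-39463225, minus strand): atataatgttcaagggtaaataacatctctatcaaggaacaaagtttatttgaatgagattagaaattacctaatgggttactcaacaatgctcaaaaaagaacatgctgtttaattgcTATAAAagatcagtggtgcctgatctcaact
Cyp2c70 (chr19:40187287-40187436, minus strand): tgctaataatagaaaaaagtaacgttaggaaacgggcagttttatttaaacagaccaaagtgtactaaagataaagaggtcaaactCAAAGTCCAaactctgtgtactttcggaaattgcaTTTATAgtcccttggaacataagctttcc

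The Cyp2a12 and Cyp2a22 stretches were alike, with 81.4% identity in a global alignment, and each held the HNF4-type letters and a TATA box. The Cyp2f2 stretch, from a gene 82.5 kb away from Cyp2a12, held neither set of letters and was 48.9% identical to that of Cyp2a12. Cyp2c70, which fell, carried the HNF4-type letters too. The Cyp2c29 start of RefSeq lies 17680 bases inside the gene as GENCODE draws it.

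In the 250 bases before the start, 21 of the 39 members with a RefSeq promoter held CAAAGNNCA on either strand, which is 53.8%, against 5.47% of 27025 promoters. TATAAA was in 19 of 39, or 48.7%, against 13.0% of all. The C/EBP-type letters TTNNGCAA were in 23.1% of members and 9.55% of all promoters, and the HNF1-type letters GTTAAT in 12.8% and 6.52%. GCGTG, the core of the dioxin response element, was in 12.8% of members and 28.2% of all promoters, and TTANGTAA, of the PAR bZIP factors, in 2.56% and 2.11%. Members of a subfamily are copies of each other, so these shares do not count independent promoters, and a match of letters is not a bound site.

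The first comparison asked what APAP injury did to these genes without cells. Of the 45 members that passed the filter on low counts, 20 fell and 2 rose in the vehicle group against control (edgeR quasi-likelihood test, false discovery rate under 0.05 over 22581 genes). Cyp2g1, an enzyme of the nose, was the member filtered out, at 0 to 14 counts a liver. The share that fell was 44.4%, against 14.8% of all genes tested, and the share that rose was 4.44%, against 15.0%. The median log2 fold change was -0.67 for the members and 0.01 for all genes. Scaling by library size alone moved the median of all genes by 0.35. Under it 16 members (35.6%) fell and 5 (11.1%) rose, against 4.92 and 38.2% of all genes. The added rises were Cyp2d26, Cyp2t4 and the scarce Cyp2b9. Cyp2b9 passed the filter on low counts only through the livers where it was high, so its rise is not read as a result. With Cyp2b9 included, the members' share in either direction was then 46.7%, close to the 43.2% of all genes. In 22 members every vehicle liver was below every control liver, where 17.3% of all genes did the same. Whole liver was measured, so fewer cells and less RNA per cell cannot be told apart here.

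In the hAAM group against the same 3 controls, 9 members fell and 2 rose. That is 20% lower, against 9.96% of all genes, and 4.44% higher, against 10.7%. The median log2 fold change of the members was -0.57 and that of all genes 0.02. Scaled by library size alone, 7 members (15.6%) fell and 3 (6.67%) rose, against 3.46 and 29% of all genes, with Cyp2s1 as the added rise. In either direction that is 22.2% of members, below the 32.5% of all genes. In 11 members all 4 hAAM livers lay below all controls, against 14.2% of genes. Without the near-identical pair, 23 of 44 members (52.3%) passed with vehicle and 11 (25%) with hAAM, against 30% and 19.6% of all genes. Without hAAM 1, 5 of 45 members (11.1%) passed with hAAM against 12.5% of all genes, and without control 1 or hAAM 2, 6 (13.3%) against 13.1%, so the members' share of calls with hAAM was then near that of all genes. Without control 3 it was 6 (13.3%) against 10.5%. The APAP groups were set against the same controls, so their values are given side by side and are not independent of each other.

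**Figure D1:**
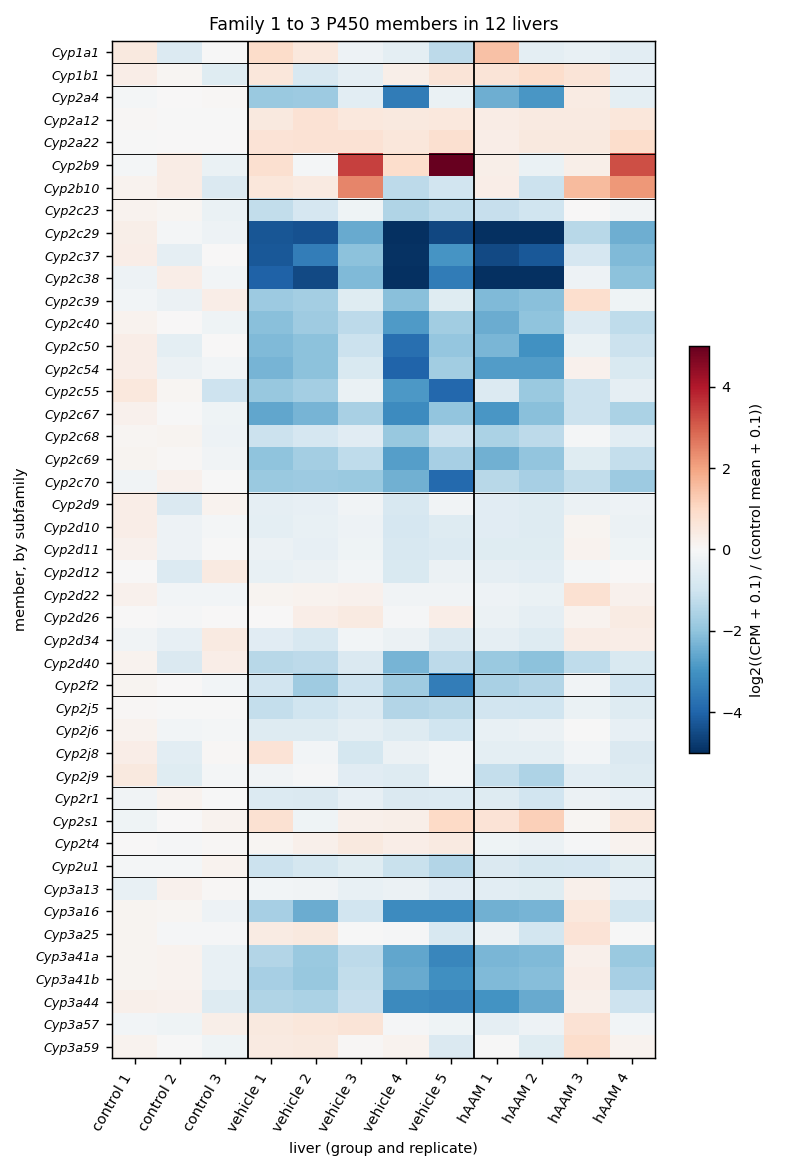
Level of the 45 tested members (rows, by subfamily) in 12 livers (columns), as log2 of CPM plus 0.1 over the control mean plus 0.1; red is above and blue below control, and the scale stops at 5 in either direction. Most Cyp2c rows are blue in the APAP livers, the column of hAAM 3 is paler than its neighbours, and Cyp2b9 is red in vehicle 3, vehicle 5 and hAAM 4.

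Markers of pericentral hepatocytes were lower as well. All 8 of them, Glul, Oat, Slc1a2, Rhbg, Lgr5, Axin2, Tbx3 and Gulo, fell in both APAP groups. Their summed level was 1510 to 2420 CPM in controls, 136 to 253 CPM in vehicle livers and 195 to 476 CPM with hAAM. Of 9 periportal markers, 1 rose and none fell in vehicle livers, and 2 rose and none fell with hAAM. These and the following counts stand beside 15.0% of all genes higher with vehicle and 10.7% with hAAM, so the periportal count with vehicle was near that share. Of 9 macrophage markers 5 rose in each APAP group, and of 8 stellate cell markers 4 rose in each. Of 6 endothelial markers 3 rose with vehicle and 2 with hAAM, and of 5 red cell markers 4 rose and 1 fell with vehicle and 1 fell with hAAM. No neutrophil, cholangiocyte or B lineage marker passed. The cholangiocyte markers summed to 301 CPM in vehicle 4, the lowest APAP liver for 18 members, and to 40.3 to 65.5 CPM in controls. The part of these cell types in the member results was not tested.

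The Cyp2c subfamily, the largest, held the most members that fell in each APAP group. Of its 13 members, 10 fell in vehicle livers and 4 with hAAM, and none rose, where 14.8 and 9.96% of all genes fell. Their summed level was 3110, 2780 and 2550 CPM in controls, 602, 683, 1030, 357 and 517 CPM in vehicle livers, and 605, 593, 1650 and 1060 CPM with hAAM. Every APAP liver was thus below every control. The group means were 22.7% of control with vehicle and 34.7% with hAAM.

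**Figure D2:**
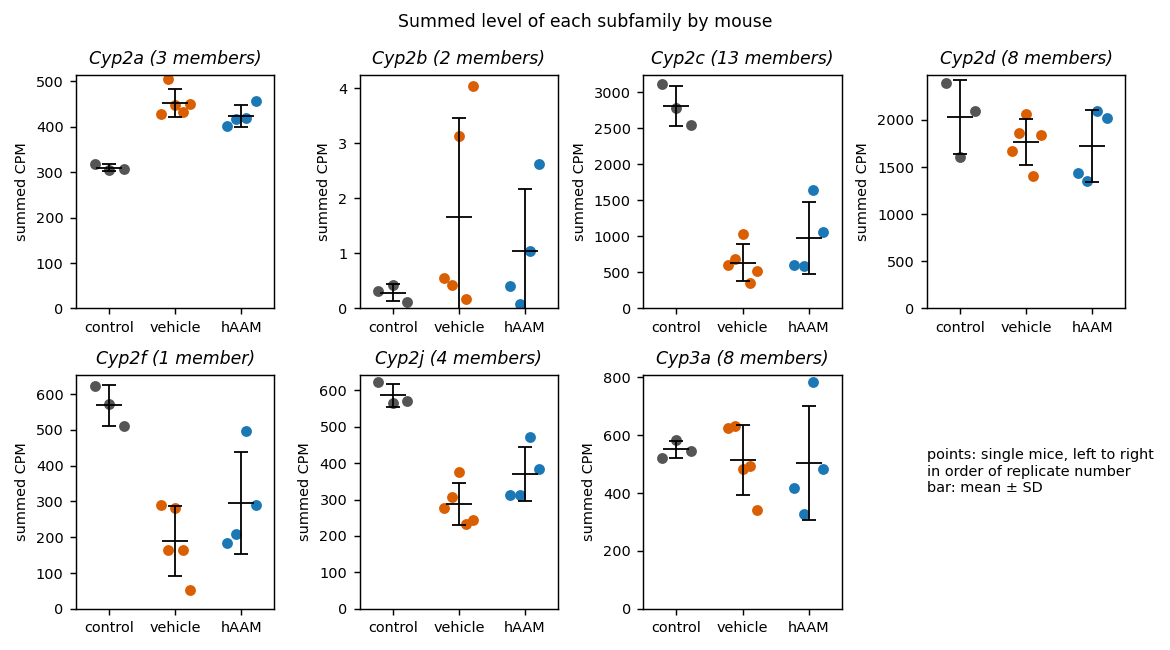
Summed TMM-scaled CPM (vertical axis, from 0) of 7 subfamilies in each mouse by group, with the mean and SD as bars. Cyp2c, Cyp2f and Cyp2j sums were below all controls in all 9 APAP livers, Cyp2a sums were above all controls, and Cyp2d and Cyp3a sums overlapped.

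Cyp2c29, an epoxygenase of arachidonic acid that is inducible through the receptor CAR, had the largest fall. It was at 779, 589 and 537 CPM in controls, at 32.9, 31.2, 112, 3.16 and 27.2 CPM in vehicle livers, and at 10.8, 10.1, 240 and 117 CPM with hAAM. The level in vehicle 4 was lower than in any other liver, and all APAP livers were below all controls. The log2 fold change was -3.95 ± 1.05 (SE) with vehicle (adjusted p = 0.0149, edgeR) and -2.75 ± 1.09 with hAAM, which missed the threshold (adjusted p = 0.094, edgeR). Without hAAM 3 the second value was -3.79 and passed (adjusted p = 0.0376, edgeR), and DESeq2 called it on all livers (adjusted p = 0.0365). Its exons overlap the pseudogene Cyp2c53-ps by 142 bases on the same strand.

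Cyp2c37 was at 109, 63 and 86.9 CPM in controls, 4.54, 7.73, 20.5, 2.71 and 11.2 CPM with vehicle, and 3.69, 4.54, 48.6 and 18.6 CPM with hAAM. It fell by 3.21 ± 0.772 on the log2 scale with vehicle (adjusted p = 0.0094, edgeR). The hAAM value, -2.19 ± 0.809, did not pass (adjusted p = 0.0742, edgeR) but did without hAAM 3, at -3.27 (adjusted p = 0.0118, edgeR).

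Cyp2c38, another arachidonic acid epoxygenase, varied widely between the mice. It was at 26.5, 40 and 28.6 CPM in controls and at 1.81, 1.31, 6.85, 0.237 and 2.75 CPM with vehicle. With hAAM it was at 0.132, 0.296, 26.6 and 7.52 CPM, so hAAM 3 reached the control range while hAAM 1 and 2 held 7 and 16 counts. It fell by 3.63 ± 1.17 with vehicle (adjusted p = 0.0351, edgeR). The call was lost without control 1, 2 or 3 or vehicle 1, 2, 4 or 5, with adjusted p of 0.0608 to 0.0798.

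Cyp2c70, which hydroxylates bile acids into the muricholic acids typical of mice, was at 644, 844 and 721 CPM in controls. It was at 205, 211, 201, 140 and 50.2 CPM with vehicle and at 283, 230, 316 and 209 CPM with hAAM. No APAP liver came near the controls, and vehicle 5 was the lowest. The log2 fold changes were -2.19 ± 0.346 (adjusted p = 0.00115, edgeR) and -1.51 ± 0.367 (adjusted p = 0.0149, edgeR), and both calls held whichever liver was left out. The liver vehicle 5 also had the highest summed red cell markers, 2030 CPM against 220 to 519 CPM in other vehicle livers, and B lineage markers, 86.3 CPM against 4.64 to 5.96 CPM. The part of these cells in the Cyp2c70 level was not tested.

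Cyp2c67, Cyp2c40 and Cyp2c69 lie in the same cluster and fell in both APAP groups. Cyp2c67 was at 364, 310 and 276 CPM in controls, 52.1, 63.3, 104, 36 and 79.6 CPM with vehicle, and 42.2, 74.7, 150 and 106 CPM with hAAM. Its log2 fold changes were -2.24 ± 0.366 and -1.76 ± 0.39, and the calls held without any 1 liver.
Cyp2c40 was at 153, 135 and 115 CPM, then 31.3, 38.8, 54.7, 18.8 and 39.7 CPM with vehicle, and 23.7, 33, 83.8 and 55.6 CPM with hAAM. Cyp2c69, whose sequence is much like that of Cyp2c40, was at 106, 100 and 85.7 CPM, then 24.1, 29.6, 39.9, 14.3 and 30.7 CPM with vehicle, and 18.4, 24.6, 63.9 and 42.8 CPM with hAAM. Their hAAM values were -1.45 ± 0.392 and -1.38 ± 0.384. The Cyp2c40 call was lost without control 1 or 2 or hAAM 1 or 2 (adjusted p 0.0518 to 0.068, edgeR), and the Cyp2c69 call without control 1, 2 or 3 or hAAM 1 or 2 (0.0547 to 0.0704). In stretches of 100 bases, 34.4% of Cyp2c40, 35.4% of Cyp2c69, 23.7% of Cyp2c67 and 19.8% of Cyp2c68 were found in another gene, so how reads were divided among them is uncertain.

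The other Cyp2c members that fell with vehicle were Cyp2c23, Cyp2c50 and Cyp2c68, with log2 fold changes of -0.94, -1.98 and -1.02. The Cyp2c50 call was lost without control 1 or 3 (adjusted p 0.0529 to 0.0713, edgeR), the Cyp2c23 call without any 1 control or vehicle 1, 2, 4 or 5 (0.0533 to 0.123), and the Cyp2c68 call without any 1 control or vehicle 1, 4 or 5 (0.0507 to 0.088). Cyp2c39, Cyp2c54 and Cyp2c55 did not pass, at -1.35, -1.85 and -1.82. Without the near-identical pair, Cyp2c54 and Cyp2c55 passed, at -2.32 (adjusted p = 0.0367, edgeR) and -2.62 (adjusted p = 0.0103, edgeR). The make-up of the subfamily differed too. The shares below are of the summed Cyp2c CPM per kilobase of exon. Cyp2c29 made up 15.9% on average in controls and 3.62% with vehicle, and 1.18, 1.1, 10.1 and 7.56% in the 4 hAAM livers. By contrast, Cyp2c23 made up 6.77, 14.8 and 13.7% in control, vehicle and hAAM livers on average, and Cyp2c68 7.56, 15.8 and 12.4%. These shares are descriptions and were not tested.

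**Figure D3:**
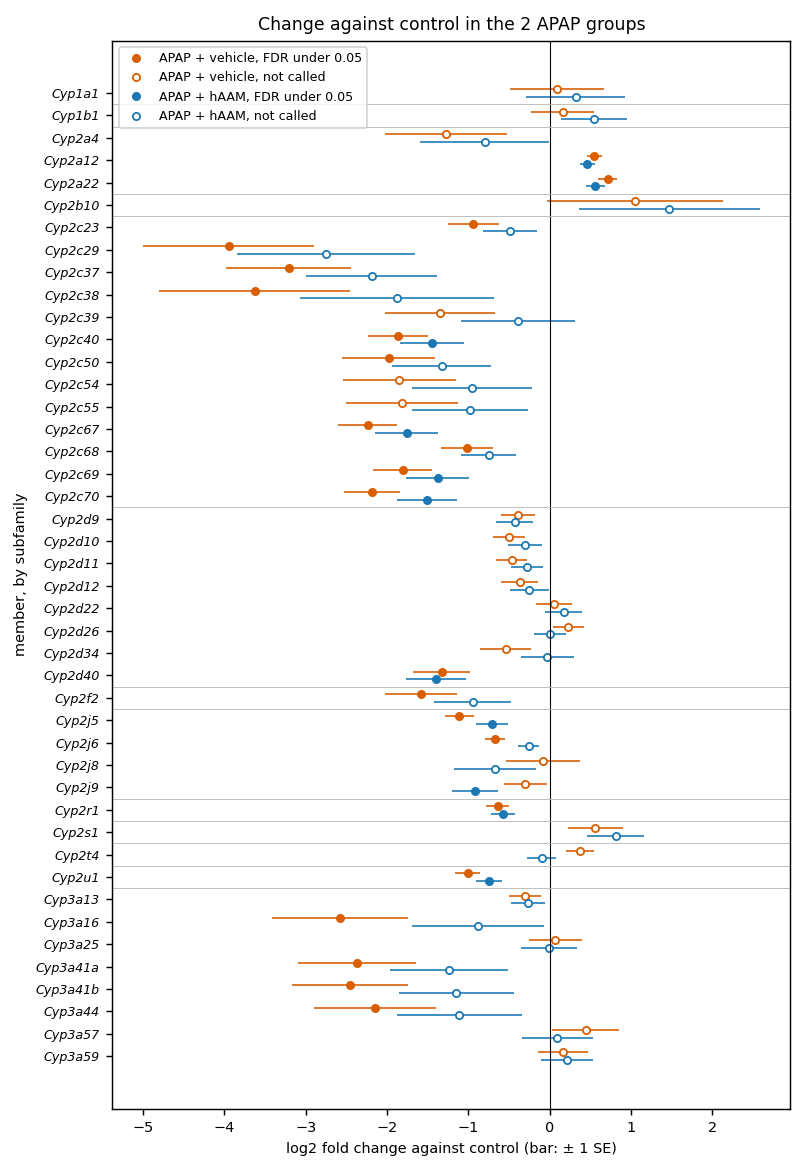
Log2 fold change against control (horizontal axis) of 44 tested members (all but Cyp2b9) by subfamily, with bars of 1 SE; orange is APAP with vehicle, blue APAP with hAAM, and filled points passed a false discovery rate of 0.05. Cyp2c points lie left of 0, Cyp2a12 and Cyp2a22 lie right of it in both groups with short bars, and most Cyp2d points lie near 0.

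Cyp2a12 and Cyp2a22 were the members that rose. Cyp2a12, an enzyme that hydroxylates steroids and bile acids, was at 309, 293 and 296 CPM in controls. It was at 416, 491, 432, 420 and 435 CPM with vehicle and at 391, 405, 404 and 441 CPM with hAAM, above all controls in all 9 livers. The log2 fold changes were 0.55 ± 0.0873 (adjusted p = 0.00115, edgeR) and 0.46 ± 0.0905 (adjusted p = 0.00601, edgeR).
Cyp2a22 was at 7.49, 7.72 and 7.76 CPM, then 12.3, 12.7, 12.8, 11.4 and 13.5 CPM with vehicle, and 9.63, 10.7, 10.7 and 14 CPM with hAAM, with changes of 0.71 ± 0.113 and 0.56 ± 0.117. The calls of both genes held in each fit that left out 1 liver, and without vehicle 3 and hAAM 4 together. The pair lies 89.7 kb apart on chromosome 7, and 4.0% of either gene's 100-base stretches occur in the other. Cyp2a4, a steroid 15α-hydroxylase that is female-predominant, shares 11.2% with Cyp2a5 and was at -1.28 with vehicle and -0.80 with hAAM, neither past the threshold.

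Cyp2f2, which activates naphthalene and marks periportal hepatocytes, went the other way in the same gene cluster. It was at 624, 572 and 511 CPM in controls, 290, 164, 281, 165 and 51.6 CPM with vehicle, and 185, 208, 498 and 290 CPM with hAAM. All APAP livers were below all controls, hAAM 3 by little. It fell by 1.58 ± 0.444 with vehicle (adjusted p = 0.0195, edgeR), a call lost without control 1 (adjusted p = 0.0566). With hAAM the value was -0.95 ± 0.471 (adjusted p = 0.173, edgeR). An antisense gene overlaps its exons by 274 bases, and whether strand was used in counting is not stated.

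**Figure D4:**
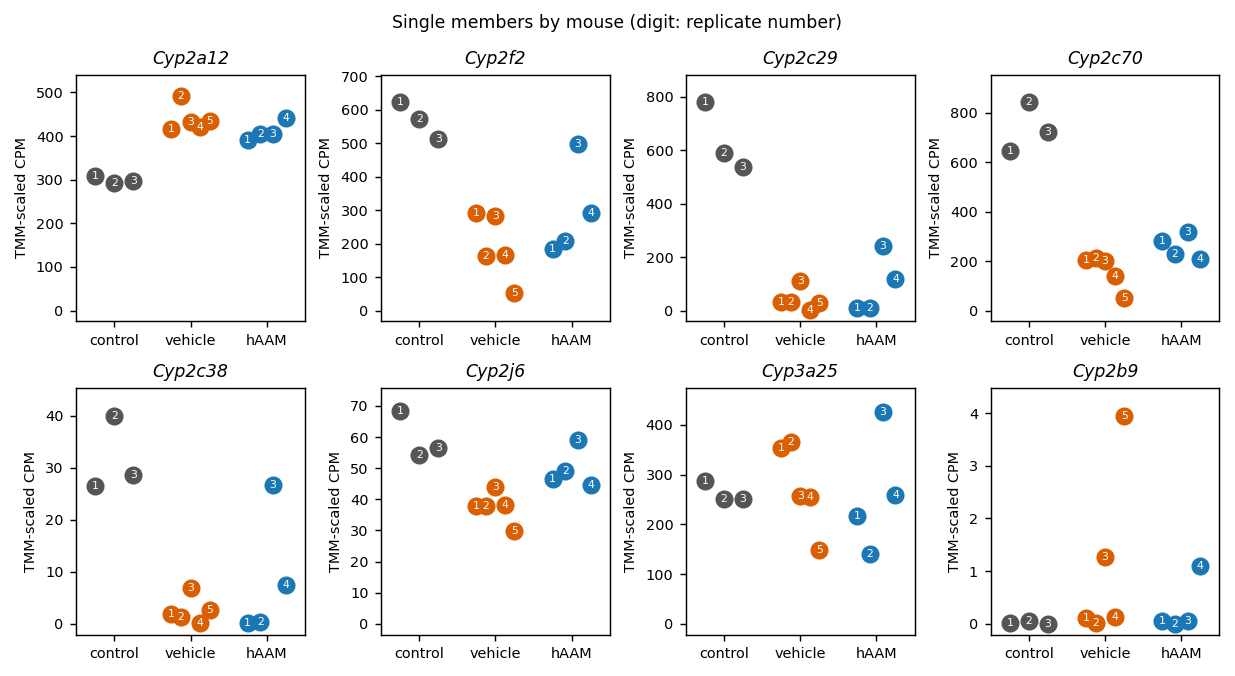
TMM-scaled CPM (vertical axis) of 8 members in each mouse by group, with the replicate number inside each point. Cyp2a12 is above control in all APAP livers, Cyp2c29 and Cyp2c70 are below it, hAAM 3 sits near the controls for Cyp2c38 and Cyp2f2, and Cyp2b9 is seen mainly in vehicle 3, vehicle 5 and hAAM 4.

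Cyp2b9 and Cyp2b10 were scarce. Cyp2b9, female-predominant, was at 0.0191, 0.0629 and 0 CPM in controls, which is 1, 4 and 0 counts. It was at 0.12, 0.0174, 1.26, 0.133 and 3.95 CPM with vehicle and at 0.0568, 0, 0.0581 and 1.1 CPM with hAAM. Of the 3 higher livers, vehicle 3 and hAAM 4 are the near-identical pair. Cyp2b9 passed the filter on low counts only through these livers and dropped out of the fits without vehicle 3, vehicle 5 or hAAM 4. Its fold changes and p-values are therefore not given, and its call under scaling by library size alone is not read as a result. Cyp2b10, the usual readout of CAR, did not pass in either group.

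Most Cyp2d members did not pass the test. Of 8, Cyp2d40 fell in both APAP groups on all livers, a share of 12.5% that is near the 14.8 and 9.96% of all genes. The other 7 did not pass in either, with log2 fold changes from -0.54 for Cyp2d34 to 0.23 for Cyp2d26 with vehicle. Without hAAM 3, Cyp2d10 (-0.51, adjusted p = 0.0342, edgeR) and Cyp2d11 (-0.47, adjusted p = 0.0397, edgeR) passed with vehicle as well. Cyp2d9 and Cyp2d12 each passed with vehicle in 1 other fit without 1 liver (adjusted p = 0.0216 and 0.0387, edgeR). Cyp2d40 was at 89.4, 47.5 and 99 CPM in controls, 29.9, 31.8, 47.1, 15.6 and 31.8 CPM with vehicle, and 21.7, 18.7, 32.4 and 46.1 CPM with hAAM. The changes were -1.33 ± 0.349 (adjusted p = 0.014, edgeR) and -1.40 ± 0.371 (adjusted p = 0.0212, edgeR). The first call was lost without control 3 (adjusted p = 0.0641), and the second without control 1 or 3 or hAAM 1 or 2 (0.0575 to 0.0831).
Cyp2d26, with the highest mean CPM of the subfamily over the 12 livers although Cyp2d9 was higher in controls (679 against 579 CPM), was at 585, 562 and 591 CPM in controls, 591, 734, 788, 557 and 722 CPM with vehicle, and 474, 426, 651 and 774 CPM with hAAM. The groups overlapped, and it was at 0.23 with vehicle, which did not pass, but at 0.57 (adjusted p = 0.0119, edgeR) under scaling by library size alone. The summed Cyp2d level was 87.1% of control with vehicle and 84.9% with hAAM, within the spread of the controls. The ratios of both APAP groups turned positive when livers were scaled by library size alone.

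Cyp2j enzymes make epoxides and hydroxy acids from arachidonic acid. Cyp2j5 was at 536, 502 and 503 CPM in controls, 226, 258, 323, 186 and 201 CPM with vehicle, and 261, 259, 403 and 331 CPM with hAAM. It fell by 1.11 ± 0.183 with vehicle (adjusted p = 0.00145, edgeR) and by 0.71 ± 0.194 with hAAM (adjusted p = 0.0239, edgeR). The hAAM call was lost without control 1, 2 or 3 or hAAM 1 or 2 (0.0519 to 0.0684).
Cyp2j6 was at 68.3, 54.2 and 56.5 CPM in controls, 37.9, 37.9, 43.9, 38.3 and 29.9 CPM with vehicle, and 46.6, 49.1, 59 and 44.7 CPM with hAAM. It fell by 0.67 ± 0.125 with vehicle (adjusted p = 0.00271, edgeR), and with hAAM it was at -0.26 ± 0.132 (adjusted p = 0.184, edgeR).
Cyp2j9 was at 18.2, 8.43 and 12.1 CPM in controls, 11.4, 12.3, 8.69, 8.31 and 11.6 CPM with vehicle, and 5.66, 4.31, 8.99 and 8.29 CPM with hAAM. It fell with hAAM by 0.92 ± 0.28 (adjusted p = 0.0368, edgeR), although hAAM 3 was above the lowest control. That call was lost without control 1 or 3, hAAM 1 or 2, or vehicle 1, with adjusted p of 0.05 to 0.177, and under scaling by library size alone.

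In the Cyp3a subfamily, which hydroxylates steroids and many drugs, 4 of 8 members fell with vehicle and none with hAAM, and all 4 were low. Without hAAM 3, however, 3 members passed with hAAM (edgeR), namely Cyp3a41a at -2.59 (adjusted p = 0.0108) in place of -1.24, Cyp3a41b at -2.48 (adjusted p = 0.0108) in place of -1.15, and Cyp3a13 at -0.51 (adjusted p = 0.0341) in place of -0.27. Cyp3a16 was at 1.14, 1.12 and 0.869 CPM in controls, 0.258, 0.104, 0.484, 0.0296 and 0.0296 CPM with vehicle, and 0.114, 0.13, 1.53 and 0.504 CPM with hAAM. Here hAAM 3 was above all controls. The vehicle change was -2.58 ± 0.836 (adjusted p = 0.0353, edgeR), and the call was lost without control 1, 2 or 3 or vehicle 1, 2, 4 or 5 (0.0538 to 0.0803).
Cyp3a41b was at 1.09, 1.13 and 0.731 CPM in controls, 0.241, 0.191, 0.368, 0.0887 and 0.0296 CPM with vehicle, and 0.132, 0.148, 1.26 and 0.243 CPM with hAAM. It fell by 2.46 ± 0.715 with vehicle (adjusted p = 0.0226, edgeR), lost without control 1 or 2 or vehicle 4 (0.0531 to 0.0616). It shares 88.2% of its 100-base stretches with other genes and Cyp3a41a shares 90.8%, so how reads were divided between the pair is uncertain. Cyp3a41a fell alike, at -2.37, with its call lost without the same 3 livers (0.0625 to 0.0718). Cyp3a44 fell as well, at -2.15, a call lost without any 1 control, vehicle 1, 2, 4 or 5, or hAAM 4 (0.0616 to 0.118), and without the near-identical pair (0.0528). On all livers Cyp3a13, Cyp3a57 and Cyp3a59 passed in neither group.
Cyp3a25, with the highest mean CPM of the subfamily over the 12 livers although Cyp3a13 was level with it in controls (263 CPM on average for each), was at 288, 250 and 251 CPM in controls, 354, 365, 257, 254 and 149 CPM with vehicle, and 217, 140, 425 and 259 CPM with hAAM. Its groups overlapped, and its changes were 0.07 ± 0.326 and -0.01 ± 0.34. The summed Cyp3a level overlapped likewise, at 93.2 and 91.4% of control, and its ratios in both APAP groups turned positive under scaling by library size alone.

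Among subfamilies of 1 member, Cyp2u1 and Cyp2r1 fell in both APAP groups. Cyp2u1, a fatty acid hydroxylase, was at 60.2, 59.4 and 71.5 CPM in controls, 29.8, 34.3, 42, 29.3 and 22.8 CPM with vehicle, and 38.9, 34.5, 35.4 and 42.2 CPM with hAAM. Its changes were -1.01 ± 0.154 (adjusted p = 0.000968, edgeR) and -0.75 ± 0.163 (adjusted p = 0.00897, edgeR), held without any 1 liver. Here hAAM 3 was among the lower hAAM livers. An antisense gene overlaps the exons of Cyp2u1 by 548 bases, and whether strand was used in counting is not stated.
Cyp2r1, a vitamin D 25-hydroxylase, was at 11.9, 15 and 13.4 CPM in controls, 8.31, 8.15, 10.1, 8.19 and 8.34 CPM with vehicle, and 8.59, 6.81, 10.8 and 10 CPM with hAAM. It fell by 0.64 ± 0.139 and 0.57 ± 0.147. Its hAAM call was lost without control 2 or 3 or hAAM 1 (adjusted p 0.0539 to 0.0736, edgeR), and under library size alone neither call held.

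Cyp1a1, the classic target of the aryl hydrocarbon receptor, was at 2.73, 1.16 and 1.92 CPM in controls, 3.77, 2.84, 1.63, 1.37 and 0.725 CPM with vehicle, and 5.49, 1.35, 1.49 and 1.31 CPM with hAAM. Cyp1b1, of the same pathway, was at 2.29, 1.9 and 1.13 CPM, then 2.67, 0.975, 1.26, 2.2 and 2.81 CPM with vehicle, and 2.8, 3.37, 2.85 and 1.31 CPM with hAAM. Neither passed the test in either group.
Cyp2s1 was at 0.4, 0.488 and 0.553 CPM in controls, 0.877, 0.4, 0.6, 0.606 and 1.05 CPM with vehicle, and 0.832, 1.24, 0.523 and 0.765 CPM with hAAM. Cyp2g1 was at 0.133, 0.11 and 0.158 CPM in controls, 0.0688, 0.0174, 0.116, 0 and 0.0296 CPM with vehicle, and 0.0189, 0, 0.271 and 0.149 CPM with hAAM.

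Per kilobase of exon, Cyp2c70 led the control livers, at 372 ± 51.1 CPM per kb (SD, n = 3), followed by Cyp2d26 at 323 ± 8.64, Cyp2d10 at 313 ± 68.7 and Cyp2f2 at 281 ± 27.9. The ranges of mean ± SD of each neighbouring pair among these 4 overlapped. With vehicle the mean of Cyp2c70 was 81.3 CPM per kb and that of Cyp2d26 379 CPM per kb.

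The calls by gene cluster were as follows, to be read against the 14.8% of all genes that fell with vehicle and 9.96% with hAAM. Of the 12 Cyp2c genes at chr19:39007019-40187333, 9 fell with vehicle and 4 with hAAM. Of the 7 Cyp3a genes at chr5:145345279-146113287, 4 fell with vehicle and none with hAAM, and of the 4 Cyp2j genes at chr4:96444596-96664154, 2 fell in each group. At chr15:82370527-82794294, 1 of 8 Cyp2d genes (12.5%) fell in each on all livers, near those shares. Without hAAM 3, Cyp2d10 and Cyp2d11 also fell with vehicle. The 9 genes at chr7:25802475-27158668 held the 2 that rose in each group, where 15.0 and 10.7% of all genes rose. They also held Cyp2f2, the 1 of the 9 (11.1%) that fell with vehicle, near the share of all genes. Coordinates are those of GENCODE vM21 on GRCm38.

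Genes that serve or control the members were listed with earlier results known. Of the 21 receptors and transcription factors, 10 fell and 3 rose with vehicle, and 9 fell and 1 rose with hAAM, with medians of -0.38 and -0.29. Hnf4a, the central hepatocyte factor, was at -0.38 (adjusted p = 0.0276, edgeR) and -0.29 (adjusted p = 0.102), while the receptors Nr1i2 (PXR) and Nr1i3 (CAR) passed in neither group. Bcl6, a repressor that maintains male-type expression, fell by 2.27 with vehicle and fell by 2.47 with hAAM.
Of 8 electron transfer partners, Por rose with vehicle by 0.78 (adjusted p = 0.0173, edgeR) and 4 fell, among them Cyb5b by 1.33, and with hAAM 2 fell. Of 12 genes of haem supply and breakdown, 2 rose and 4 fell with vehicle, and 1 rose and 2 fell with hAAM. The shares of all genes to set beside these lists are 15.0% higher and 14.8% lower with vehicle, and 10.7% higher and 9.96% lower with hAAM, so the haem list with hAAM was near them. The 8 female-predominant members in the table included 6 that fell with vehicle and 2 with hAAM, and of 7 CAR-inducible members 3 and 0 fell. Of 4 male-predominant members 2 fell with vehicle and 1 with hAAM, and of 9 members of arachidonic acid metabolism 6 and 3 fell. Of the 4 left-out P450 genes, Cyp2e1, Cyp1a2 and Cyp3a11 fell with vehicle and none with hAAM. Of 29 P450 genes of other families, 10 fell and 5 rose with vehicle, and 6 fell and 4 rose with hAAM.

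The last comparison asked whether hAAM changed these genes in injured liver. No member passed the test between hAAM and vehicle (edgeR quasi-likelihood test, smallest adjusted p = 0.966), and 0% of all genes did. DESeq2 called no member and 1 gene in all. Without the near-identical pair, edgeR called no gene, and DESeq2 called 88 genes (0.392%) but no member, with Cyp2j6 at an adjusted p of 0.083. At an unadjusted p under 0.05 there were 4 members, or 8.89%, against 5.02% of all genes. The log2 fold change was above 0 for 34 members and below for 11, with a median of 0.38 against 0.00 for all genes. A missed threshold does not show that the groups were alike.

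Cyp2j6 had the smallest p. It was 0.41 ± 0.116 higher with hAAM (95% interval 0.18 to 0.64, unadjusted p = 0.00422, edgeR) and was the member in which every hAAM liver was above every vehicle liver, as were 0.709% of all genes. The nearest livers were hAAM 4 at 44.7 CPM and vehicle 3 at 43.9 CPM, the near-identical pair. Without that pair the difference was 0.52 (adjusted p = 0.521, edgeR).
Cyp2t4 was 0.47 ± 0.158 lower with hAAM (unadjusted p = 0.0114, edgeR), at 0.705, 0.676 and 0.731 CPM in controls, 0.757, 0.87, 1.03, 0.902 and 0.991 CPM with vehicle and 0.586, 0.556, 0.678 and 0.803 CPM with hAAM. Cyp2j9 was at -0.62 ± 0.251 and Cyp2j5 at 0.39 ± 0.171. For Cyp2c29 the interval ran from -0.64 to 3.03, which spans no difference as well as a several-fold one. The intervals of Cyp2j6 and Cyp2c29 use a normal approximation with the SE, so they are narrower than the edgeR test would give.

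The liver hAAM 3 bore on many of these values but not on all. Over the 20 members that fell with vehicle, its median level was 79.8% of the control mean, against 14.4 to 46.9% in the other 8 APAP livers, and 9 of the 20 were at or above the lowest control. Without it, Cyp2c29 differed between hAAM and vehicle by 0.16 in place of 1.20, and Cyp2c38 by 0.05 in place of 1.75. Without the near-identical pair the same values moved the other way, to 1.88 and 2.56. Without hAAM 3, Cyp2j6 was at 0.32, and Cyp2t4 and Cyp2j9 were at -0.49 and -0.78, further from 0 than with it. Without it, 24 members were above 0 and 21 below in hAAM against vehicle, with a median of 0.01. Against control, 18 members (40%) then passed in the hAAM group in place of 11 (24.4%), while the share of all genes went from 20.7 to 24.2%, with Cyp2c29, Cyp2c37, Cyp2c50, Cyp2c68, Cyp3a13, Cyp3a41a and Cyp3a41b added and none lost. Its pericentral markers summed to 476 CPM, the highest of the APAP livers but below the 1510 CPM of the lowest control. Its periportal markers summed to 15900 CPM, the highest of all 12. Their part in the member levels was not tested.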

How the data were processed

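Per the labels and methods, RNA of frozen liver was depleted of ribosomal RNA, made into directional libraries and sequenced in pairs. The authors used cutadapt 4.6 for trimming, STAR 2.7.1a for alignment to GRCm38 and summarizeOverlaps for counting reads in genes; the strand setting is not given in the sources used here. The deposited values are raw read counts for 24187 genes, each with at least 15 counts in total. The labels' protocol names 14 libraries, of which 12 are analysed here. Human cells were injected, and reads were aligned to mouse alone.

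Symbols, positions and exon lengths came from GENCODE vM21, which named 24092 genes. Counts were filtered with filterByExpr and scaled by TMM, and 1 quasi-likelihood model of the 12 livers was fitted in edgeR 4.0.16 (R 4.3.3), with Benjamini-Hochberg adjustment over 22581 genes. CPM values are TMM-scaled. Each fold change has its standard error. Scripts were tested on simulated data. DESeq2 1.42.0, other scalings and filters, the replicate block and leaving out livers were alternatives. The members and lists were chosen with earlier results of these data known. A further gene of the pericentral marker list is not reported here. Values in every mouse are given for the member of each subfamily with the highest mean CPM over the 12 livers, for the 5 largest rises and falls past the threshold in each APAP group, and for the 5 smallest p-values between hAAM and vehicle. The labels count mice, 3, 5 and 4 a group, although whether vehicle 3 and hAAM 4 are separate mice is not certain. Promoters are from RefSeq, matched for 39 of 46 members. Depths of 47391650 to 74056505 counts leave members under 1 CPM with few counts.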

Additional observations from a re-analysis of the deposited data

Results flagged for a closer look

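In 6 of 66 sets of values (1 member in 1 APAP group, on the scale log2(CPM + 1)), 1 liver stood far from the rest of its group by Dixon's criterion, and chance gives about 1 in 20. Cyp1a1 was at 2.7 in hAAM 1 and 1.21 to 1.32 in the other hAAM livers. Cyp2a12 was at 8.94 in vehicle 2 and 8.7 to 8.77 in the other vehicle livers. Cyp2b9 was at 1.07 in hAAM 4 and 0 to 0.0815 in the others. Cyp2c70 was at 5.68 in vehicle 5 and 7.13 to 7.72 in the others. Cyp2r1 was at 3.47 in vehicle 3 and 3.19 to 3.22 in the others. Cyp3a41b was at 1.18 in hAAM 3 and 0.179 to 0.313 in the others.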

How the results depend on the processing

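The count of 22 members called with vehicle ranged from 13 (28.9%, without control 1) to 25 (55.6%, without hAAM 3) when 1 liver was left out. Of all genes, 21.5% were called with vehicle without control 1 and 32% without hAAM 3. The lowest all-gene share was 20.1%, without control 3, where 33.3% of members passed. The hAAM count of 11 ranged from 5 (without hAAM 1) to 18 (without hAAM 3), with 6 without control 1, control 3 or hAAM 2. The share of all genes called with hAAM ranged from 10.5% (without control 3) to 24.2% (without hAAM 3), and was 12.5% without hAAM 1. The correlations of same-numbered livers were mixed, from -0.711 to 0.582 (vehicle 3 with hAAM 3), and not all above 0.1, so the numbers were not taken to pair the mice. With the replicate number as a block the counts were 16 and 7 (35.6 and 15.6%, against 18.8 and 13.1% of all genes). Leaving out hAAM 3, hAAM 4 and vehicle 3 together, chosen after seeing the data, gave 27 in the hAAM group, 25 of them lower, which is 61.4% of members against 28.4% of all genes. The count of members called between hAAM and vehicle was 0 in every fit run.

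Scaling by library size alone moved the median of all genes by 0.35 (vehicle) and 0.30 (hAAM). Under it the log2 ratios of summed levels were 0.89 and 0.75 for Cyp2a, in place of 0.55 and 0.45, and -0.69 and -0.38 for Cyp2j, in place of -1.03 and -0.66. The vehicle ratios changed sign to 0.14 for Cyp2d, from -0.20, and 0.24 for Cyp3a, from -0.10. The hAAM ratios of Cyp2d and Cyp3a, at -0.24 and -0.13 in the main scaling, turned positive too. Of 1692 values of named members under 23 settings, 1620 kept direction and side of the threshold, 58 lost a call, 14 gained one and no called value changed sign; 40 uncalled values did. Members under 1 CPM are limited by counts.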
